A study of Mus musculus with 6 samples.

Results

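The 9 genes described here are the Notch ligands Dll1, Jag1 and Jag2, the receptors Notch1, Notch2 and Notch3, the DNA-binding effector Rbpj and the target genes Hes1 and Hey1, among 21000 protein-coding genes with a curated RefSeq transcription start site (TSS). The data were ChIP–seq peak lists for p65 (encoded by Rela), a DNA-binding subunit of NF-κB, from epidermal cells of C57BL/6J mice, released from skin with trypsin. A peak was counted for one of the 9 genes when the TSS nearest to its midpoint belonged to that gene, and any further peak within 50 kb of its TSS was recorded separately. Over the 3 lists the genes held 17 such sites: 16 of the 8525 peaks in adult, 8 of the 4169 peaks in aged/IgG control (the IgG list) and 10 of the 6014 in aged/anti-IL-17A/F (the anti-IL-17A/F list).

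The adult mice were untreated and, per the study's methods, 17 to 25 weeks old. The aged mice were 73 weeks old when treatment began and received intraperitoneal injections for 12 weeks, either of control IgG or of antibodies blocking IL-17A and IL-17F. Each list came from the pooled reads of 4 mice, so that there was 1 value per condition, without a spread between mice, and no test between conditions was possible. All differences between conditions below are descriptions of 3 lists.

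The peak names of 2 lists shared a prefix. In the list labelled adult, all 8525 peak names began with the prefix Treated_m, the same prefix as the 6014 names of the anti-IL-17A/F list, whereas the IgG list had a prefix of its own. The former pair were separate peak sets, with 0 identical intervals between them. The conditions are named below as labelled, and the counts of genes and peaks are also given with these lists exchanged.

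Notch signalling passes between touching cells. A ligand of the Delta or Jagged family on one cell binds a Notch receptor on its neighbour, proteases cut the receptor, and the released intracellular part joins RBPJ on DNA to activate genes of the Hes and Hey families, which encode transcriptional repressors. In the epidermis the pathway is known for its part in the switch of keratinocytes from the basal layer to differentiation, and Jag1 is a known NF-κB target in other cells. A TSS is where transcription of a gene begins.

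The windows that carry the results are the strongest sites of the receptor, ligand and effector genes and the only Dll1 site. Each is printed from 100 bp before to 100 bp after the summit, the position of highest signal in the peak, taken from the adult list. All are on the plus strand of mm10 (GRCm38), from the RefSeq assembly, and none touches an exon of these genes. Capitals mark a match to the 10-letter NF-κB consensus or to a second κB pattern, GGG and TTCC with 3 free bases between them, on either strand.
Notch2 start site, chr3:98013316-98013516: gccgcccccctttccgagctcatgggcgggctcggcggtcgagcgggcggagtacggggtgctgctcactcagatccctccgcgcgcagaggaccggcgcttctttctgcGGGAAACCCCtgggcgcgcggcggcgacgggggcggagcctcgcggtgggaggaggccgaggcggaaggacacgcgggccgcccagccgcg
Notch2 intron, chr3:98020558-98020758: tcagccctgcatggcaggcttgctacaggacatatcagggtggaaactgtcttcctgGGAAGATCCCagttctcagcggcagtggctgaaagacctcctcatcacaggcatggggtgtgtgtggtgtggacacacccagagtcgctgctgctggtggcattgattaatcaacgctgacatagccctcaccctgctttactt
Jag1 32.5 kb upstream, chr2:137148958-137149158: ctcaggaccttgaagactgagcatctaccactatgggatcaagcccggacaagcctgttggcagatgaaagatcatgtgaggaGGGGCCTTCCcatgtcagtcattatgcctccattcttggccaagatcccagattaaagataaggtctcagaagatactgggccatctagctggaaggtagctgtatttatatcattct
Jag1 297 kb upstream, chr2:137413563-137413763: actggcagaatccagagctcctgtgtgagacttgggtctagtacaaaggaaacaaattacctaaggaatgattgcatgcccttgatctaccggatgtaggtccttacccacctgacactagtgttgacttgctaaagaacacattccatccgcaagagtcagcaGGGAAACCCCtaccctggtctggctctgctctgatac
Rbpj 1.22 kb upstream, chr5:53589011-53589211: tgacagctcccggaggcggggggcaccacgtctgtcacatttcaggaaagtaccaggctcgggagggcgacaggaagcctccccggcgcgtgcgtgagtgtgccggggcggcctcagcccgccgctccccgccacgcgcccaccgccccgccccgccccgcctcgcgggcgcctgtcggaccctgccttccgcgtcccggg
Dll1 3.55 kb upstream, chr17:15380423-15380623: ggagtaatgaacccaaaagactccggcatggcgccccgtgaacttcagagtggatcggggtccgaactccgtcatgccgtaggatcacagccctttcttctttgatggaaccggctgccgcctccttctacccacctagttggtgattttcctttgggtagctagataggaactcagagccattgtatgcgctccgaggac
The matches were GGGAAACCCC at the Notch2 start and again 297 kb upstream of Jag1, GGGGCCTTCC 32.5 kb upstream of Jag1, and GGAAGATCCC in the Notch2 intron, where the pattern fits on the minus strand. The windows of Rbpj and Dll1 held neither pattern, which says only that these letters were not in the windows.

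At the level of genes, 7 of the 9 had a peak in adult, namely Dll1, Jag1, Jag2, Notch2, Notch3, Rbpj and Hes1. Among all protein-coding genes the share with a nearest-TSS peak in adult was 23.0%. In the IgG list 4 of the 9 had a peak, against 12.9% of all genes, and in the anti-IL-17A/F list 4 of the 9, against 17.4%. The 4 genes were the same in both aged lists: Jag1, Notch2, Rbpj and Hes1. They had a peak in all 3 lists, as did 11.4% of protein-coding genes. Dll1, Jag2 and Notch3 had a peak in adult alone, a pattern of 6.44% of protein-coding genes. With the adult and anti-IL-17A/F labels exchanged, the counts were 4 in adult and 7 in the anti-IL-17A/F list, and the Dll1, Jag2 and Notch3 peaks would be in the anti-IL-17A/F list.

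**Figure D1:**
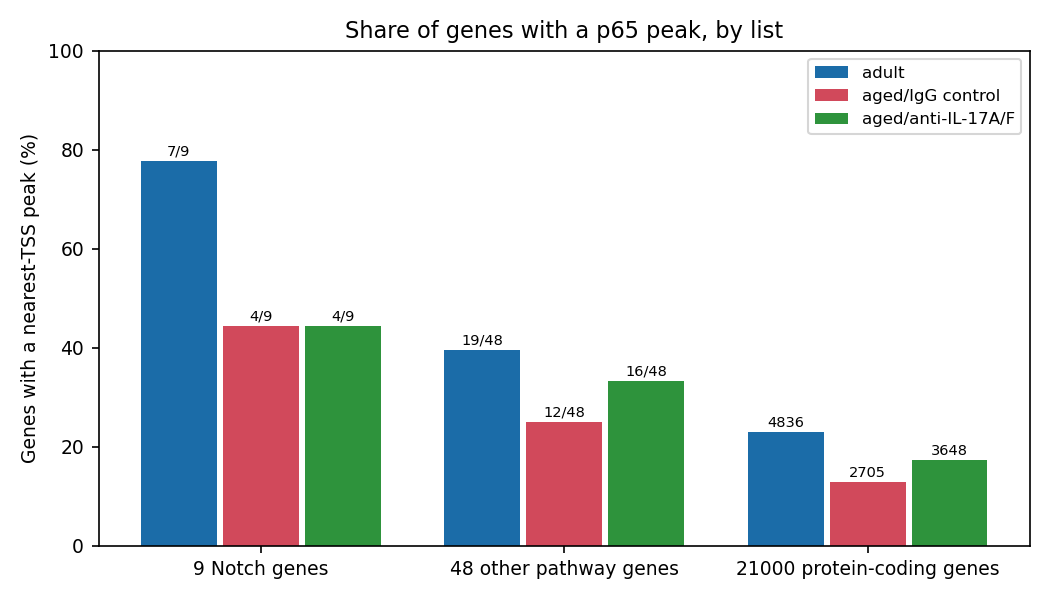
Share of genes with a nearest-TSS p65 peak (y axis, percent) in the 3 lists, for the 9 Notch genes, 48 other genes of the pathway and all 21000 protein-coding genes, with the number of genes above each bar. The Notch genes stand at 7 of 9 in adult and 4 of 9 in each aged list, and the share over all genes is also highest in adult.

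The adult list is the longest, and with lists of equal length the number of genes did not differ. When each list was reduced to its 4169 peaks with the highest fold enrichment, the 4 genes Jag1, Notch2, Rbpj and Hes1 were left in adult, and the number in the anti-IL-17A/F list was also 4. The same 4 adult genes were left when peaks were ranked by −log10 q. The stretch of genome counted for each gene also differed: it was 489 kb for Jag1 and 238 kb for Rbpj, against a median of 42.6 kb over protein-coding genes, and any peak there was counted for them. Jag2, with 10.8 kb, and Notch1, with 16.9 kb, had short ones.

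Counting any peak within 50 kb of a TSS, whichever gene was nearest, 7 of the 9 genes had a peak in adult (43.4% of all protein-coding genes), 5 in the IgG list (27.5%) and 6 in the anti-IL-17A/F list (35.0%). The genes gained in the aged lists were Dll1 and Notch3, through peaks nearer to other genes. Notch1 and Hey1 had no peak within 50 kb in any list.

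**Figure D2:**
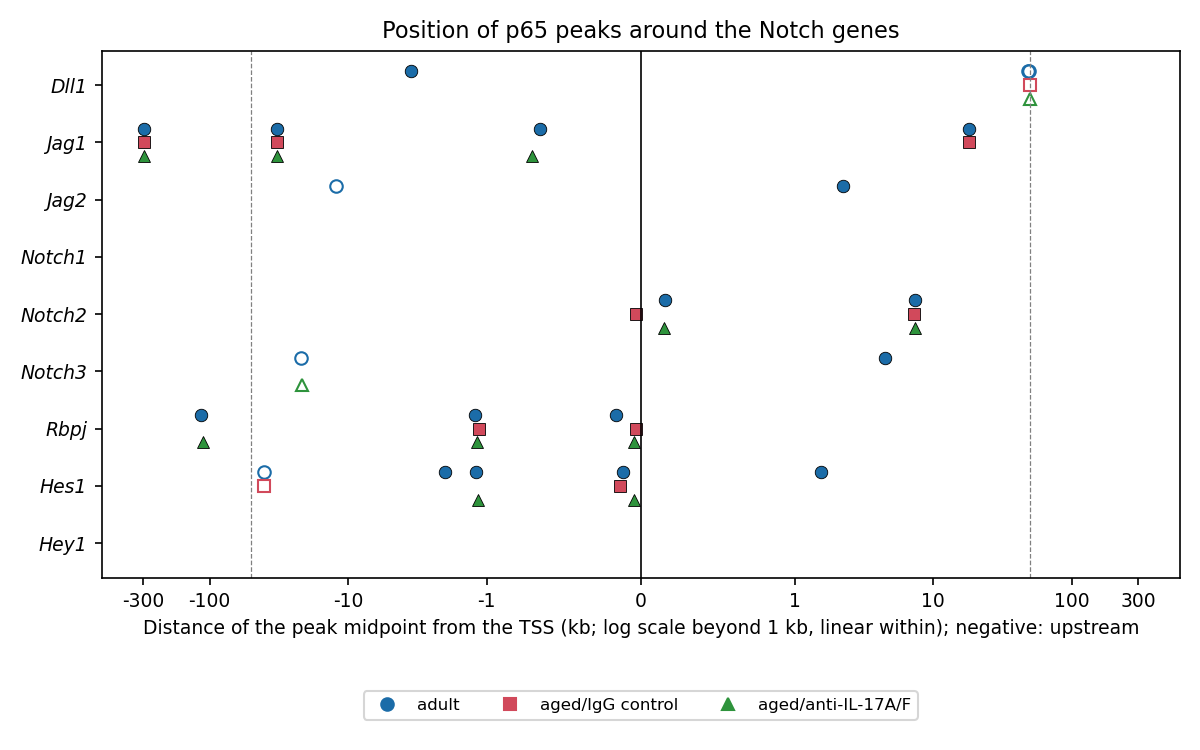
Distance of each peak's midpoint from the TSS of its Notch gene (x axis, kb, logarithmic beyond 1 kb and linear within, negative upstream) for the 9 genes, with 1 symbol per list. Filled symbols are peaks with their nearest TSS at that gene and open symbols are peaks within 50 kb (dashed lines) that lie nearer to another gene. Notch2, Rbpj and Hes1 have a peak at the TSS in all 3 lists, and the rows of Notch1 and Hey1 are empty.

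Among the ligands, Jag1 had the most sites. Jag1 encodes a transmembrane ligand and occupies chromosome 2 from 137081451 to 137116520, on the minus strand. It had 4 peaks in adult and 3 in each aged list. None covered the TSS. The closest, 655 bp upstream, had a fold enrichment (signal over local background) of 2.46 in adult and 2.45 in the anti-IL-17A/F list, and no peak was listed there in the IgG list. These were weak peaks: the share of the list with a lower fold, called the percentile here, was 5.15% in adult and 3.91% in the anti-IL-17A/F list. Among adult peaks within 5 percentile points of it, 13.3% were overlapped in the IgG list and 26.6% in the anti-IL-17A/F list, so that most adult peaks of this strength were not overlapped in a given aged list.

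The intergenic site 32.5 kb upstream of Jag1 had the largest ratio of fold between 2 lists among the shared sites. Its fold was 3.96 in adult (rank 3375 of 8525), 2.51 in the IgG list (rank 4032 of 4169) and 5.33 in the anti-IL-17A/F list (rank 1280 of 6014). It was thus near the bottom of the IgG list, at the percentile 3.24%, and in the upper part of the others, at 60.4% in adult and 78.7% in the anti-IL-17A/F list. The −log10 q was 23.3, 6.15 and 29.3 in the same order. The ratio of fold in the anti-IL-17A/F list to that in the IgG list was 2.13. Among the 221 shared peaks within 5 percentile points of it in the IgG list, the median ratio was 1.30 and 4.52% had one as high, against a median of 1.10 over all 3612 shared peaks. The site is described because its ratio was the largest, so that this share is no measure of how unusual it was. Against adult, the IgG ratio was 0.634, with a median of 0.853 among 394 shared peaks of like strength in adult, of which 4.57% were as low, and of 0.813 over all 3879. Without replicates it cannot be said whether these ratios exceed the spread between mice. With the lists exchanged, the site would be weakest in the IgG list all the same.

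The farthest Jag1 site, 297 kb upstream, followed the same order between adult and the IgG list. Its fold was 5.27 in adult, 2.99 in the IgG list and 3.97 in the anti-IL-17A/F list, at the percentiles 79.0%, 17.6% and 57.7%. The IgG to adult ratio was 0.567, and 8.39% of shared peaks of like strength in adult were as low. From the IgG list to the anti-IL-17A/F list the ratio was 1.33, with 26.3% of shared peaks of like strength in the IgG list as high. At this distance the nearest TSS is only a naming rule. An intronic site 18.1 kb downstream of the TSS had a fold of 3.59 in adult and 2.59 in the IgG list and was not listed in the anti-IL-17A/F list, where 51.6% of adult peaks and 65.2% of IgG peaks of like strength were overlapped. At all 3 Jag1 sites found in both, the fold was lower in the IgG list than in adult, which was also so of the median shared peak.

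Dll1 encodes a Delta ligand and lies on the minus strand of chromosome 17. It had 1 peak of its own, in adult, at 15380330 to 15380636, 3.55 kb upstream of the TSS and intergenic. The fold was 2.34, rank 8265 of 8525, with a −log10 q of 4.50, so that 3.0% of adult peaks had a lower fold. Of adult peaks of like strength, 13.8% were overlapped in the IgG list and 28.1% in the anti-IL-17A/F list. Absence was thus the commoner outcome for such a peak in each aged list.

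A stronger site lay near the 50 kb limit, downstream of Dll1 and nearest to the gene Gm10510. It had a fold of 6.43 in adult, 4.16 in the IgG list and 7.76 in the anti-IL-17A/F list, and held an NF-κB consensus match, GGGAAGTCCC, in each list. Its midpoints were 49.3 kb to 49.5 kb from the TSS, just inside the limit, and just outside it were a peak of Egfl7 50.3 kb from Notch1 in adult, with a fold of 2.69, and in the anti-IL-17A/F list, with a fold of 2.98. A further peak near Gm10510, 48.6 kb away with a fold of 2.67, was in adult alone.

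Jag2 encodes the other Jagged ligand and lies on chromosome 12, on the minus strand. Its 1 peak, in an intron 2.25 kb downstream of the TSS at 112927048 to 112927451, was in adult alone with a fold of 2.88 and the percentile 19.9%. Of adult peaks of like strength 14.0% were overlapped in the IgG list and 28.8% in the anti-IL-17A/F list. A second adult peak, 12.2 kb upstream and inside Nudt14, had a fold of 4.09 and an NF-κB consensus match.

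Among the receptors, Notch2 had the strongest peak of the 9 genes in all 3 lists. It lies on the plus strand of chromosome 3 from 98013538 to 98150367. The peak covered its TSS, with the summit 122 bp upstream in adult and 130 bp upstream in both aged lists. Its fold was 12.85 in adult (rank 135), 8.22 in the IgG list (rank 250) and 9.48 in the anti-IL-17A/F list (rank 233), at the percentiles 98.4%, 94.0% and 96.1%. The consensus match lay 15 bp from the adult summit and 23 bp from the others. The peak was 1210 bp wide in adult, 735 bp in the IgG list and 1208 bp in the anti-IL-17A/F list. The IgG to adult ratio of fold was 0.64, and 34.4% of shared peaks of like strength in adult were as low. The ratio from the IgG list to the anti-IL-17A/F list was 1.15, and 39.0% of shared peaks of like strength in the IgG list were as high.

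A second Notch2 site, in an intron 7.35 kb downstream, had a fold of 4.42 in adult, 3.91 in the IgG list and 3.36 in the anti-IL-17A/F list. Unlike the TSS peak it was lowest in the anti-IL-17A/F list. Its ratio from the IgG list to the anti-IL-17A/F list was 0.86, and 21.5% of shared peaks of like strength in the IgG list were as low. The summit in the anti-IL-17A/F list was 7282 bp from the TSS against 7120 bp in adult. The window around it did not reach the match to the second κB pattern. That match, at 98020615 to 98020624, still lay inside the anti-IL-17A/F peak, which ran from 98020583 to 98021208.

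Notch3, on the minus strand of chromosome 17, had 1 peak in adult alone, in an intron 4.45 kb downstream of the TSS at 32162248 to 32162625. Its fold of 2.25 placed it at the percentile 1.81%, the lowest of the 17 sites, with a −log10 q of 4.77. Of adult peaks of like strength 13.8% were overlapped in the IgG list and 28.7% in the anti-IL-17A/F list. A peak 21.7 kb upstream and inside Ephx3 was in adult, with a fold of 3.25, and in the anti-IL-17A/F list, with 3.80. For Notch1, the peak closest to the TSS was 50.3 kb away in adult and in the anti-IL-17A/F list and 53.3 kb away in the IgG list, in each case nearest to Egfl7.

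**Figure D3:**
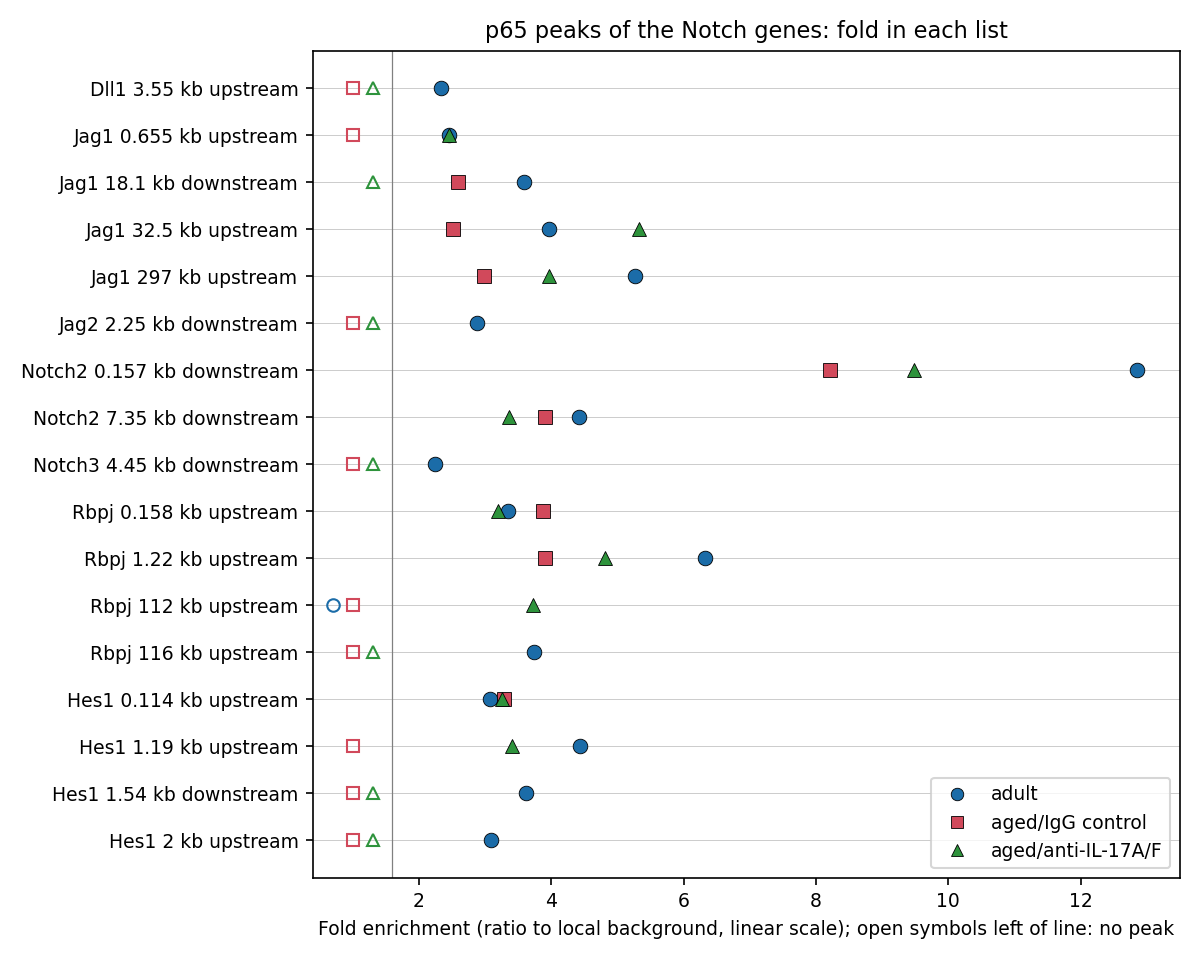
Fold enrichment (x axis, ratio to local background, linear scale) at the 17 sites of the Notch genes, with 1 symbol per list and open symbols left of the grey line where a list has no peak. The Notch2 TSS peak stands at 8.22 to 12.85, and at the site 32.5 kb upstream of Jag1 the value is lowest in the IgG list, 2.51, and highest in the anti-IL-17A/F list, 5.33.

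Rbpj, on the plus strand of chromosome 5, encodes the DNA-binding protein through which all Notch receptors act. A peak covered the TSS of its shorter transcripts at 53590346 in all 3 lists, with a fold of 3.35 in adult, 3.88 in the IgG list and 3.20 in the anti-IL-17A/F list. This was 1 of 2 shared sites with a higher fold in the IgG list than in adult, the ratio being 1.16, and 15.0% of shared peaks of like strength in adult had a ratio as high. It was also found in all lists where like peaks often were not: of adult peaks of like strength, 26.5% were overlapped in the IgG list and 45.3% in the anti-IL-17A/F list. A stronger peak 1.22 kb upstream, in an intron of the longer transcript, had a fold of 6.33 in adult, 3.91 in the IgG list and 4.81 in the anti-IL-17A/F list. Its IgG to adult ratio was 0.618, and 25.1% of shared peaks of like strength in adult were as low. The neighbouring Rbpj sites thus differed in opposite directions between these lists.

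Far upstream of Rbpj were a pair of separate intergenic peaks, each in 1 list. The peak 116 kb upstream was in adult alone with a fold of 3.74, and of adult peaks of like strength 36.0% were overlapped in the IgG list and 58.0% in the anti-IL-17A/F list. The peak 112 kb upstream, at 53443979 to 53444390, was the only one of the 17 sites found in the anti-IL-17A/F list alone. Its fold was 3.73, and of anti-IL-17A/F peaks of like strength 88.4% were overlapped in adult and 54.2% in the IgG list. Its window held a match to the AP-1 motif TGANTCA.

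Hes1 encodes a transcriptional repressor of the helix-loop-helix family and is the best known direct Notch target. It lies on the plus strand of chromosome 16 from 30065357 to 30067796. A peak covered its TSS in all 3 lists, with a fold of 3.07 in adult, 3.29 in the IgG list and 3.25 in the anti-IL-17A/F list. The values in the 3 lists lay close together, and the IgG to adult ratio of 1.07 was the other one above 1. Only 20.5% of adult peaks of like strength were overlapped in the IgG list and 38.7% in the anti-IL-17A/F list. A stronger peak 1.19 kb upstream had a fold of 4.44 in adult and 3.41 in the anti-IL-17A/F list and was not listed in the IgG list, where 64.1% of adult peaks and 40.4% of anti-IL-17A/F peaks of like strength were overlapped. It was the one Hes1 site with an NF-κB consensus match. The other Hes1 peaks were in adult alone, 1.54 kb downstream in a coding exon with a fold of 3.62 and 2.0 kb upstream with a fold of 3.09. Of adult peaks as strong as the former, 34.1% were overlapped in the IgG list and 54.9% in the anti-IL-17A/F list, and of those as strong as the latter 18.9% and 38.4%. A peak 40.3 kb upstream, inside 9030404E10Rik, had a fold of 2.97 in adult and 3.48 in the IgG list.

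Hey1, the second target, lies on the minus strand of chromosome 3 and had no peak of its own. The closest peak was 337 kb away in adult and 361 kb in both aged lists, nearest to Tpd52.

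Site by site, 7 of the 17 were in all 3 lists, 6 in adult alone, 2 in adult and the anti-IL-17A/F list, 1 in adult and the IgG list and 1 in the anti-IL-17A/F list alone. In the IgG list 8 of the 16 adult peaks were overlapped (45.5% of all adult peaks were), and in the anti-IL-17A/F list 9 of the 16 (60.4%). All 8 IgG peaks overlapped one in adult (93.3% of all), and 7 of the 8 overlapped one in the anti-IL-17A/F list (86.6%). Of the 10 anti-IL-17A/F peaks, 9 overlapped one in adult (85.6%) and 7 one in the IgG list (59.9%). These shares lay near those of all peaks. The 6 sites found in adult alone stood at percentiles from 1.81% to 54.5%, with a highest fold of 3.74.

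**Figure D4:**
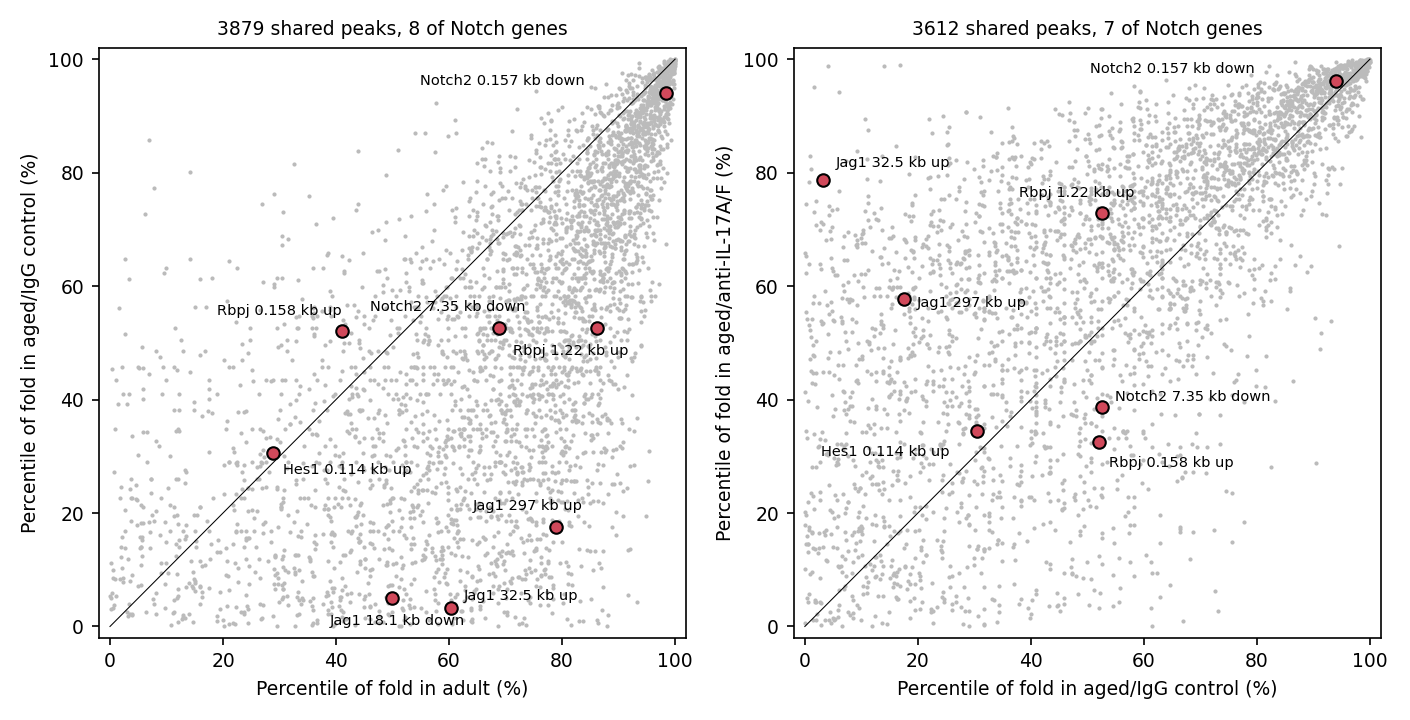
Percentile of fold of each shared peak, the share of a list with a lower value, in adult and the IgG list (left) and in the IgG list and the anti-IL-17A/F list (right). Grey points are all 3879 and 3612 shared peaks, red points those of the Notch genes and the line equal percentiles. The Jag1 site 32.5 kb upstream stands at 60.4% against 3.24% on the left and at 3.24% against 78.7% on the right, and the Notch2 TSS peak stays in the top corner of both. Over all shared peaks the median shift was -14.0 percentile points from adult to the IgG list and 6.5 from there to the anti-IL-17A/F list, in lists of unequal length.

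Both strands were searched for 3 motifs up to 100 bp from each summit. The NF-κB consensus was found in 3 of 16 peaks in adult (28.5% of all adult peaks), 2 of 8 in the IgG list (37.8%) and 3 of 10 in the anti-IL-17A/F list (34.9%). In flanks 2000 bp from the summits of all peaks the share was 1.95% to 2.26%. With the second pattern counted too, 5 peaks in adult had a κB match (34.7% of all adult peaks), 4 in the IgG list (44.7%) and 4 in the anti-IL-17A/F list (41.8%). In the RefSeq table of promoters of this build, from 250 bases before to 50 after a start, 7 of the 9 genes matched an entry, and Notch2 was the one of them with the consensus, which 4.51% of all 32851 promoters held. The Rbpj promoter held the RBPJ core (25.6% of promoters) and the Dll1 promoter the AP-1 motif (7.81%).

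The RBPJ core TGGGAA was found in 9 of 16 peaks in adult (25.9% of all adult peaks), 4 of 8 in the IgG list (30.1%) and 4 of 10 in the anti-IL-17A/F list (28.2%). In adult 3 of these 9 peaks held a core that shared bases with a κB match, at the Jag1 site 32.5 kb upstream, the Notch2 intron and the Hes1 site 1.19 kb upstream, since both patterns can hold GGAA. The same was so of 2 of the 4 peaks in the IgG list and 2 of the 4 in the anti-IL-17A/F list. The Hes1 TSS window held 2 cores in each list. AP-1 was matched in 0 of 16 peaks in adult (13.2% of all), 1 of 8 in the IgG list (14.1%) and 1 of 10 in the anti-IL-17A/F list (14.4%). The median GC content of the windows was 61.2% in adult against 54.7% over all adult peaks, 56.2% against 53.7% in the IgG list and 58.7% against 53.7% in the anti-IL-17A/F list, and its part in the motif shares was not tested. These are small counts, in which 1 peak moves a share by many percentage points.

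**Figure D5:**
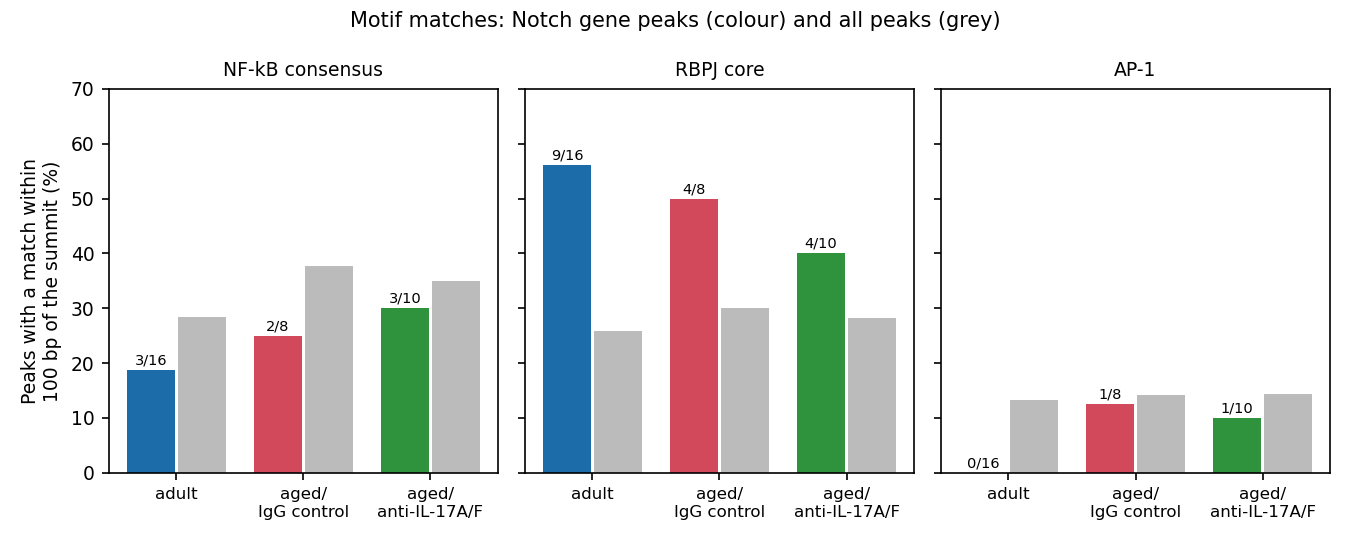
Share of peaks with a motif match within 100 bp of the summit (y axis, percent) in each list for the NF-κB consensus, the RBPJ core and AP-1, in colour for the peaks of the Notch genes, with their counts, and in grey for all peaks. The RBPJ core stands at 9 of 16, 4 of 8 and 4 of 10, above the grey bars, and the NF-κB consensus below them. Coloured and grey bars alike count cores that share bases with a κB match.

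Of 48 other genes of the pathway, 19 had a nearest-TSS peak in adult (39.6%, against 23.0% of all protein-coding genes). In the IgG list 12 had one (25%, against 12.9%) and in the anti-IL-17A/F list 16 (33.3%, against 17.4%). A peak in all 3 lists was found for 11 of the 48, a pattern of 11.4% of all protein-coding genes, and 27 had a peak in none. The Mastermind coactivators, which join RBPJ and the cut receptor on DNA, and the Fringe enzymes, which add sugars to the receptor, held most of the highest folds. These were Maml1 with 9.01, Maml3 with 7.53 and Mfng with 6.44 in adult. In the IgG list they were Maml3 with 5.83, Maml2 with 5.47 and Maml1 with 4.66. In the anti-IL-17A/F list they were Maml2 with 5.91, Dtx2, a regulator of Notch signalling, with 4.96 and Lfng with 4.63. Not all of these peaks were close to the gene. The Maml3 peak was 62.5 kb from the TSS in adult and the IgG list. In the anti-IL-17A/F list the Dtx2 peak was 20.1 kb and the Lfng peak 16.4 kb away. The remaining ligands (0 of 4) and the receptor Notch4 had none. Of the 7 proteases and protease subunits that cut the receptor, 3 had a peak in adult (23.0% of all protein-coding genes). In the IgG list 0 had one (12.9%) and in the anti-IL-17A/F list 1 (17.4%). With so few genes, 1 gene moves a share by many percentage points. The adult folds of the 3 were low, from 2.50 at Adam10 to 2.85 at Adam17.

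In all, 10 of the 48 had a peak in 1 or 2 lists. Adam10, Aph1b, Ep300 and Ncor1 were in adult alone, a pattern of 6.44% of all protein-coding genes. Adam17, Hes5 and Hes7 were in adult and the anti-IL-17A/F list, and Mib1 in adult and the IgG list. Numb and Dtx4 were in the anti-IL-17A/F list alone. Several peaks found in 1 list were weak, with folds of 2.50 at Adam10, 2.74 at Aph1b, 2.48 at Ep300 and 2.61 at Dtx4. The fold was 3.39 at Ncor1 and 3.50 at Numb. The overlap of peaks of like strength was not computed for these genes. Among the Hes and Hey genes, Hey2 had a peak at its TSS in all 3 lists, with a fold of 5.18 in adult, 2.45 in the IgG list and 3.19 in the anti-IL-17A/F list.

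Among markers of cell types, 7 of 8 keratinocyte markers had a peak in adult, 5 in the IgG list and 6 in the anti-IL-17A/F list. Of 5 T cell markers, 0, 0 and 1 had one, of 4 melanocyte markers 0 in each list, and of 5 fibroblast markers 1, 0 and 1. Of 4 Langerhans cell markers 2, 1 and 2 had one, and of 3 endothelial markers 1 in each list, Pecam1. Over all protein-coding genes the shares were 23.0%, 12.9% and 17.4%. By fold the strongest marker peak was that of Pecam1, 40.1 kb to 40.2 kb from its TSS, with 18.63 in adult, 11.21 in the IgG list and 15.83 in the anti-IL-17A/F list, and the strongest at a keratinocyte marker was that of Trp63, with 7.52, 6.59 and 5.81. A peak shows where p65 was found and not that the gene was expressed, so these counts cannot check the labelled cell type.

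By the percentiles of their strongest peaks over the 3 lists, the genes most like Notch2 among 2387 genes with a peak in all lists were Esrp1 and Mpc1, at distances of 0.278 and 0.735 percentile points. A gene's strongest peak need not be the same site in each list: for Jag1 it was the site 297 kb upstream in adult and the IgG list and that 32.5 kb upstream in the anti-IL-17A/F list, and for Hes1 the TSS site in the IgG list and that 1.19 kb upstream in the others. For Jag1 the nearest genes were Acacb (2.49) and Kalrn (5.10), which had percentiles of 18.3% and 18.9% in the IgG list against 79.7% and 74.4% in the anti-IL-17A/F list. For Rbpj they were Phldb1 (2.56) and Lrrc23 (2.59), and for Hes1 Pnmt (1.84) and Cpsf7 (3.02), all in percentile points.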

How the data were processed

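ChIP–seq for p65 was done on epidermal cells of 4 mice per condition. Trimming (Trimmomatic 0.36) and alignment to mm10 (BWA) were done by the authors. Reads of the mice of a condition were merged, deduplicated and downsampled to an equal number, and MACS2 was run with a q cutoff of 0.01, extending reads to 300 bp. Whether the 3 input samples entered the calling is not given in the sources used here, and inputs were not analysed here. Pooling removes the spread between mice, and a peak near the threshold can be listed in one condition and missed in another with little difference in signal.

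Each deposited list gives peak positions, summits, a score and a fold enrichment (ratio to local background). It also gives a p-value and a q-value, both as −log10, as the authors' peak caller wrote them. Read depth per peak is unknown, and the lists hold values above a threshold only. Peak midpoints were assigned to the nearest curated RefSeq TSS of GRCm38. Overlap meant at least 1 bp. Motifs were searched within 100 bp of the summit. All 9 genes and all their peaks are named, with other pathway genes named where bound in 1 or 2 lists or among the 3 highest folds of a list. Some further pathway genes are not reported here and were left out of the counts. For likeness, the 2 nearest genes are given by Euclidean distance of percentiles. No test between conditions was made, having 1 list per condition. The genes and lists were chosen with earlier results of these data known. Python 3.11.15, numpy, pandas and bedtools 2.31.1 were used. Assignment and overlap were tested on adult peaks shifted at random, and the motif search on random sequence with planted matches. Alternatives covered thresholds, list length, assignment, overlap and motif window.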

Additional observations from a re-analysis of the deposited data

How the results depend on the processing

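The counts of genes and peaks were recomputed with stricter q-values, lists of equal length, other assignment rules, other overlaps, other motif windows and another κB pattern, and 69 of 81 values stayed within 1.5 times the original. In adult, the genes with a peak fell from 7 to 4 with a −log10 q of at least 10, with equal lists by fold and with equal lists by −log10 q, and their peaks from 16 to 10, 7 and 9. By a −log10 q of at least 5, adult kept 5 genes. In the IgG list, the peaks fell from 8 to 5 with a −log10 q of at least 10 and to 5 within 10 kb of a TSS. With either setting its genes fell from 4 to 3, because Jag1 was lost there, whereas the anti-IL-17A/F list kept Jag1. With protein-coding starts only, the peaks rose to 27 in adult, 15 in the IgG list and 16 in the anti-IL-17A/F list, and Dll1 joined both aged lists. With equal lists by fold, 5 of 7 adult peaks were overlapped in the IgG list, against 8 of 16. With the labels of the adult and anti-IL-17A/F lists exchanged, an alternative chosen after seeing the data, adult had 4 genes and 10 peaks and the anti-IL-17A/F list 7 genes and 16 peaks, and 3 of 7 values stayed within 1.5 times. No paired analysis was possible because each condition is 1 pooled list and no test was made.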
